A study of Mus musculus with 16 samples.

Results

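The comparison of tamoxifen-treated Mtm1 KO muscle with untreated wild type muscle was made on all genes, to describe what differs from WT in treated diseased quadriceps and what the drug adds. It used 7 of the 16 libraries of the series: the 4 labelled Mtm1 KO + TAM (replicates 13 to 16) and 3 labelled WT (replicates 2, 3 and 4). The mice were C57BL/6, and the labels give an age of post natal day 36 for all groups. Mtm1 KO mice carry a targeted deletion of exon 4 of Mtm1 in every cell from conception. The Mtm1 KO + TAM mice ate chow with tamoxifen at 40 mg/kg from day 21, and the WT mice ate standard chow. Genotype and drug therefore both differ between these groups. The other groups, used to take the difference apart, were untreated Mtm1 KO (replicates 9, 10 and 11) and WT + TAM (replicates 5 to 8), on the same chow and schedule as their counterparts.

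Myotubularin, the product of Mtm1, is a lipid phosphatase that removes the phosphate at the D3 position of phosphoinositides on endosomal membranes. Its loss gives X-linked myotubular myopathy, with small fibers, central nuclei and disordered triads, the junctions of T-tubule and sarcoplasmic reticulum where excitation releases calcium. Tamoxifen binds estrogen receptors and acts as an agonist or antagonist depending on the tissue, and muscle fibers express estrogen receptor alpha (Esr1).

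The stretch deleted in the Mtm1 KO mice is shown because it defines the genotype compared here. Mtm1 (ENSMUSG00000031337) lies on the plus strand of chromosome X from 71210767 to 71315691 (GRCm38, GENCODE release M21), and in transcript Mtm1-213 exon 4 of 15 covers chrX:71234852-71234946. Its 95 bases, read from the GENCODE transcript in the 5′ to 3′ direction, are as follows.
Mtm1 exon 4: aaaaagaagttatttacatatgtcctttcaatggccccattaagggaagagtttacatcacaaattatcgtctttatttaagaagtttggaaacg
Counts of the gene include reads from the exons that remain. The normalized count of Mtm1 was 371, 402 and 366 in the WT libraries and 48.7, 80.4, 73.4 and 84.6 in the Mtm1 KO + TAM libraries. Normalized counts are counts scaled to 1 common library size by the TMM method. The groups did not overlap, which held for all 1150 genes called in this comparison (adjusted p at most 0.01) and for 31.2% of all genes tested. Mtm1 was 5.39-fold lower in Mtm1 KO + TAM (log2 difference -2.43 ± 0.20, SE, edgeR adjusted p = 0.000105). The study's set leaves out the library labelled WT replicate 1, so it served as a check only. Its Mtm1 was at 101, near the knockout level, while other genes, such as Sln and Krt18, lay with WT. Whether its label is right was not tested.

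The 7 libraries held 27555316 to 29847222 counts, and 14942 of 41388 genes passed the filter on low counts. In WT 23.6% to 27.6% of all counts fell on the top 10 genes, and in Mtm1 KO + TAM 15% to 19% did. The labels only number the libraries, and the study describes the n of its RNA sequencing as individual mice. All 8 markers of skeletal muscle were tested, and their summed level in CPM (counts scaled to a common library total) was 139100 to 168500 in WT and 97870 to 126100 in Mtm1 KO + TAM. In whole muscle, fewer cells of a type and less RNA per cell cannot be told apart.

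Treated Mtm1 KO muscle differed from WT at 1150 genes (7.7% of those tested, edgeR quasi-likelihood test, adjusted p at most 0.01). Of these, 532 were higher (3.56%) and 618 were lower (4.14%). The counts of called list members given below stand against these shares. The difference was at least 2-fold for 619 of the called genes and at least 4-fold for 177. Most called genes were protein coding, 502 of the higher and 583 of the lower ones. The count fell to 731, 615 and 531 without WT replicate 2, 3 or 4, to 701, 726 and 585 without Mtm1 KO + TAM replicate 13, 14 or 15, and was 1246 without replicate 16. It was 297 with the library labelled WT replicate 1 added, and for 555 of the 1150 genes (48.3%) that library lay nearer to the Mtm1 KO + TAM mean than to the WT mean. Scaling by library size alone gave 1573 higher and 298 lower genes, with the median of all genes at 0.28 on the log2 scale, and limma on log2(RPKM + 1) gave 1104 higher and 232 lower, with that median at 0.16. The balance of higher and lower genes therefore depends on the scaling. Fold changes and log2 differences from the fit are relative to the median gene. Summed CPM of lists, and the floors and ratios of genes with few counts, are relative to library totals. On that scale the median of all genes lay at 0.28.

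To separate genotype from drug without reusing a library, untreated Mtm1 KO was compared with WT + TAM. This second comparison has the same difference in genotype and the opposite difference in treatment. A gene that goes with genotype has the same sign in both comparisons, and one that goes with tamoxifen has opposite signs. The second comparison called 934 genes (6.31% of 14811), and 493 or 496 without WT + TAM replicate 7 or 8 and 519, 410 or 372 without Mtm1 KO replicate 9, 10 or 11. Of the 1150 genes called in Mtm1 KO + TAM against WT, 1137 were tested in it, and 1023 of these (90%) had the same sign, against 69.7% of all 14566 genes tested in both. It called 399 of them in the same direction, which is 35.1% of the 1137 and 43.3% of the 922 genes it called that were tested in both. It called 12 in the opposite direction. The 532 higher genes had a median log2 difference of 1.15 in the first comparison, which chose them, and those tested had 0.89 in the second. For the 618 lower genes the medians were -0.98 and -0.68.

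**Figure D1:**
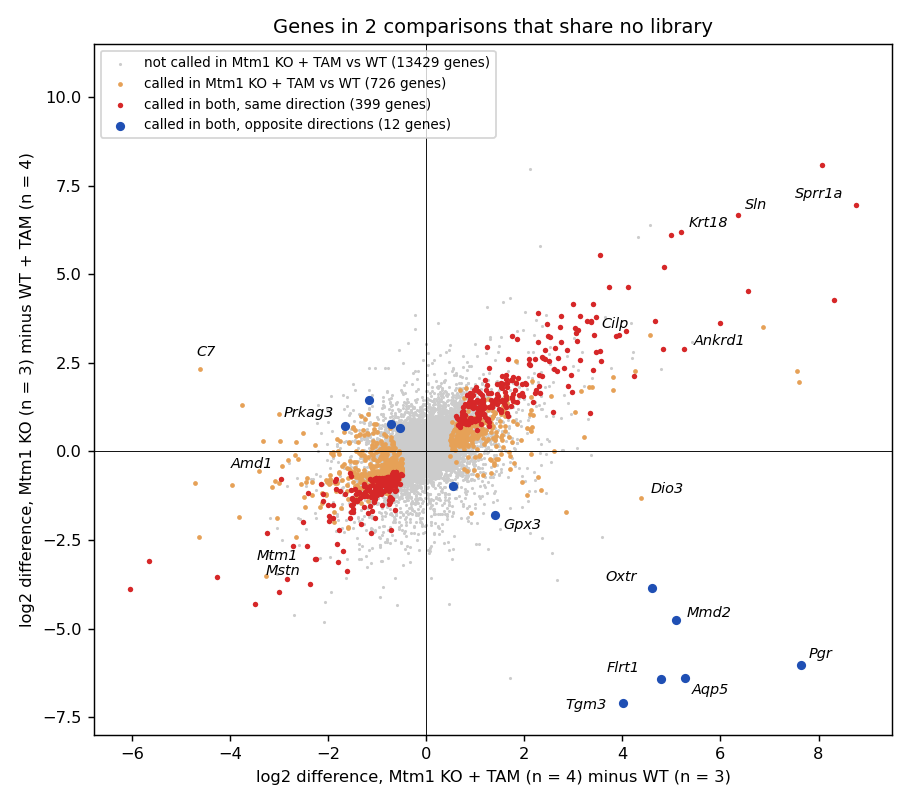
Each point is a gene tested in both comparisons, with the log2 difference of Mtm1 KO + TAM (n = 4) minus WT (n = 3) on the x axis and that of Mtm1 KO (n = 3) minus WT + TAM (n = 4) on the y axis. Grey genes were not called in the first comparison, orange genes were called in it alone, red genes (399) in both with the same direction and blue genes (12) in both with opposite directions. Sln and Krt18 lie at the upper right, Flrt1 and Aqp5 at the lower right. The positions of Pgr and Sprr1a, with 0 counts in WT, depend on the prior count of the fit.

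The same split was made within 1 fit of 14 libraries, where Mtm1 KO + TAM minus WT is the sum of a genotype part (the mean of the 2 differences between genotypes) and a tamoxifen part (the mean of the 2 differences between treated and untreated). The genotype part was called at 3013 genes (19.4% of 15556) and the tamoxifen part at 92 genes (0.591%), 49 higher and 43 lower with tamoxifen. The tamoxifen part was called at 54 and 53 genes without WT replicate 2 or 4, at 58 without Mtm1 KO + TAM replicate 15 and at 59 and 51 without Mtm1 KO replicate 9 or 10. The other pairwise comparisons share libraries with the first one and are given only for reference. Mtm1 KO against WT called 531 genes (3.6%), WT + TAM against WT called 19 (0.131%) and Mtm1 KO + TAM against Mtm1 KO called 0 of 15062 (0%), with 1137 genes at an unadjusted p of at most 0.05. The lowest adjusted p of that last comparison was 0.06. An interaction of genotype and tamoxifen was called at 0 of 15556 genes, with 664 at an unadjusted p of at most 0.05 and a lowest adjusted p of 0.27.

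Several of the largest increases went with genotype. Sarcolipin (Sln), a small inhibitor of the sarcoplasmic reticulum calcium pump, had a normalized count of 50.3, 70.8 and 254 in WT and of 6180, 20756, 9310 and 5866 in Mtm1 KO + TAM. As at all called genes, the groups did not overlap, and Sln was 81.9-fold higher (log2 6.36 ± 0.71, adjusted p = 0.000485). In the second comparison Sln was 103-fold higher (log2 6.68 ± 0.46, adjusted p = 5.53e-05), and its tamoxifen part was -0.16 ± 0.40. Its gene is at chr9:53850164-53854560 (plus strand).

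Krt18, a keratin of simple epithelia, was at 19.1, 9.44 and 32.5 in WT and at 494, 1412, 809 and 383 in Mtm1 KO + TAM. It was 36.7-fold higher in the first comparison and 73.2-fold higher in the second (log2 5.20 ± 0.55 and 6.19 ± 0.44). Ankrd1, a stretch-responsive ankyrin repeat protein of the I-band, was at 268, 261 and 277 in WT and at 7880, 16157, 11203 and 6854 in Mtm1 KO + TAM. It was 38.5-fold higher (log2 5.27 ± 0.32, adjusted p = 1.83e-05), and 7.41-fold higher in the second comparison. Ankrd1 was also higher in WT + TAM (379 to 791) than in WT, and its tamoxifen part of 1.19 ± 0.22 had an adjusted p of 0.0121, which misses the threshold.

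Sprr1a, a cornified envelope protein, had 0 counts in all WT libraries and 24.9 to 93.1 normalized counts in Mtm1 KO + TAM, at least 58.2-fold higher against a floor of 3 counts over the WT group. Fosl1, a subunit of AP-1, had 2 counts over the WT group and 373 over Mtm1 KO + TAM, a ratio of 134 relative to library totals (95% counting interval 36.7 to 1110). Of its 50-base stretches, 52.6% also occur in the overlapping gene Ccdc85b, so its value is uncertain. Ripply1, a transcriptional co-repressor, also had 2 counts in WT, and its ratio of 166 (45.8 to 1380) drew on 1 library at 261 while the other 3 were at 30.3 to 53.3. The call of Ripply1 was lost without any 1 of the WT libraries (highest adjusted p 0.0174). Th, tyrosine hydroxylase, was 63.2-fold higher, and its call was lost without WT replicate 2, 3 or 4 or Mtm1 KO + TAM replicate 13, with an adjusted p of up to 0.0239.

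The genotype part had its lowest p at Ahnak2, Cilp, Myl4, Ttc9, Osbpl3, Stat5b, Fam57b and Mtm1, among called genes with a group mean of at least 50. Cilp, a matrix protein of cartilage and fibrotic tissue, was at 2076, 2721 and 2214 in WT and at 19474, 37234, 22877 and 22729 in Mtm1 KO + TAM. It was 10.8-fold higher in the first comparison and 9.72-fold higher in the second. Ahnak2, a large scaffold of the costamere, rose 8.18-fold and 11.1-fold. Ttc9, a tetratricopeptide protein, rose 8.47-fold and 8.71-fold, and Osbpl3, an oxysterol-binding protein, 3.66-fold and 4.24-fold. Stat5b, a transcription factor downstream of growth hormone, was 2.09-fold and 2.64-fold lower. For Cilp, Ahnak2, Ttc9, Osbpl3 and Stat5b the ranges of the untreated and treated knockout libraries overlapped, as the per-library plot shows for Cilp.

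**Figure D2:**
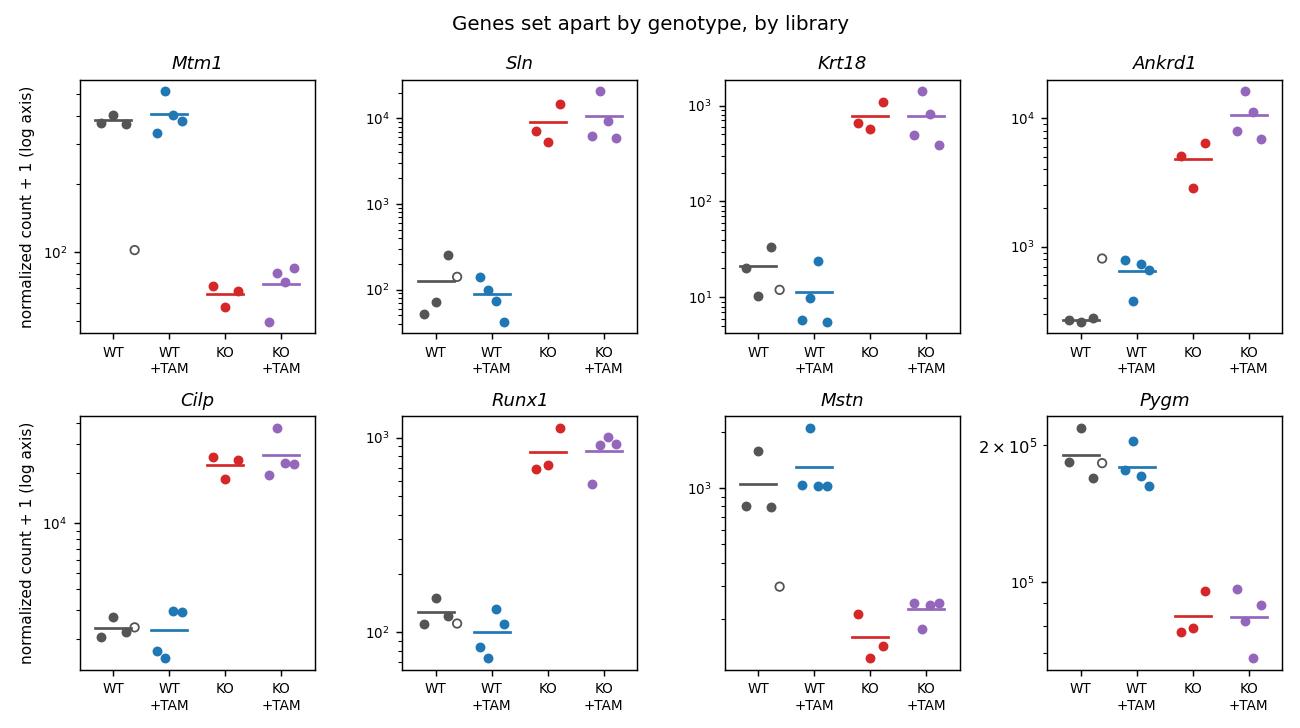
Normalized count plus 1 on a log axis for 8 genes in each library of WT (n = 3), WT + TAM (n = 4), Mtm1 KO (n = 3) and Mtm1 KO + TAM (n = 4). Filled points are libraries, lines are group means and the open circle is the library labelled WT replicate 1. Sln, Krt18, Ankrd1, Cilp and Runx1 are higher and Mtm1, Mstn and Pygm lower in both knockout groups than in both WT groups, and WT replicate 1 sits with WT for Sln and Krt18 but near the knockout groups for Mtm1.

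Among the largest decreases were noncoding and poorly described transcripts. B230312C02Rik was at 5133, 7726 and 4945 in WT and at 428, 101, 140 and 594 in Mtm1 KO + TAM. It was 19.2-fold lower, and 11.7-fold lower in the second comparison. C130080G10Rik was 65.9-fold and 14.8-fold lower, and A530058N18Rik 50.7-fold and 8.54-fold lower. C130080G10Rik lies within A530058N18Rik on the same strand, and 36.2% of its 50-base stretches occur in that gene. Of those of A530058N18Rik, 69% occur in another annotated gene, and 47.9% in C130080G10Rik. The 2 decreases are therefore not independent. Cdh4, a classical cadherin, was at 344, 764 and 467 in WT and at 48.7, 30.6, 10.3 and 62.5 in Mtm1 KO + TAM (14.1-fold lower).

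Of 26 genes tested of the phosphoinositide pathway around Mtm1, 1 was higher and 1 lower. This share of 7.7% equals the 7.7% called among all genes. The lower one was Mtm1 itself, and the higher one was Vac14, the scaffold of the kinase that makes PI(3,5)P2 (1.81-fold, adjusted p = 0.00291). Vac14 was 1.82-fold higher in the second comparison, and its call was lost without WT replicate 3 or 4 (adjusted p up to 0.0142) and with WT replicate 1 added (0.0236). Dnm2, the dynamin whose lowering improves this mouse model, did not pass the test, with a log2 difference of 0.14 ± 0.10 (adjusted p = 0.354). These values are of RNA, and the study reports DNM2 protein as raised in Mtm1 KO and reduced by tamoxifen, with transcript unchanged. The class II PI 3-kinase Pik3c2b did not pass either, at -0.34 ± 0.17 (adjusted p = 0.191).

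Genes of the triad and of excitation-contraction coupling leaned lower. Of 26 tested, 6 were called lower and 1 higher, with a median log2 difference of -0.48, against -0.001 for all genes. Fsd2, a protein of the junctional sarcoplasmic reticulum, was at 7581, 10004 and 6936 in WT and at 3135, 2789, 3015 and 4237 in Mtm1 KO + TAM (2.52-fold lower). Ank1, whose small muscle form anchors the sarcoplasmic reticulum to the sarcomere, was 2.71-fold lower. Stac3, an adaptor of the voltage sensor, was 1.65-fold lower, and Speg, a kinase at the triad that binds myotubularin, 1.63-fold lower. The calls of Speg and Stac3 were lost in 9 of 17 alternatives each. With WT replicate 1 added, 2 of the 26 genes were lower.

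For calcium handling beyond the triad, 4 of 13 tested genes were lower and 1, Sln, was higher. Calm3, a calmodulin gene, was 2.75-fold lower, and 2.66-fold lower in the second comparison. Parvalbumin (Pvalb), the calcium buffer of fast fibers, was 2.48-fold lower. It was at 560130, 855390 and 551780 in WT and at 318420, 249320, 198460 and 308650 in Mtm1 KO + TAM. The call of Pvalb was lost without WT replicate 3 or 4 or Mtm1 KO + TAM replicate 14, with an adjusted p of up to 0.0156.

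Of 15 fast-fiber sarcomere genes tested, 4 were called lower and 0 higher (2 to 3 lower with 1 library left out, and 1 with WT replicate 1 added). The median log2 difference was -0.64 in the first comparison and -0.75 in the second, in which 8 were lower. Actn3, the fast-fiber alpha-actinin, was at 239240, 355800 and 238970 in WT and at 112630, 126810, 94439 and 107530 in Mtm1 KO + TAM. The groups were apart, as at all called genes, and the difference was 2.56-fold, with 2.47-fold in the second comparison. Myh4, the myosin of fast 2B fibers, was 2.59-fold lower, and Mybpc2, fast myosin-binding protein C, 2.66-fold lower. Myh4 lost its call without WT replicate 2 or without Mtm1 KO + TAM replicate 13, 14 or 15 (adjusted p up to 0.0143), and with WT replicate 1 added (0.0266). Myh4 shares 18.9% of its 50-base stretches with other myosin genes.

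Slow-fiber genes were higher in median, at 1.24 and 1.44 in the 2 comparisons, but only 2 of 12 were called, Actn2 and Csrp3. The first median was 0.135 with WT replicate 1 added, 0.753 without WT replicate 3 and 1.86 without WT replicate 4. Csrp3, a Z-disc sensor of the slow program, was at 723, 28.3 and 1271 in WT and at 14831, 8590, 15755 and 13230 in Mtm1 KO + TAM. The WT libraries spread widely, and its call was lost in 6 of the 7 fits that left out 1 library (all but that without WT replicate 3), and with WT replicate 1 added, where Csrp3 was at 6299 in that library. Actn2 was 3.04-fold higher, with a call lost with that library added (adjusted p = 0.0978) and without WT replicate 2 or Mtm1 KO + TAM replicate 13, 14 or 15 (up to 0.0148).

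Of 17 genes of developing and regenerating muscle, 8 were called higher and 0 lower, and 7 were higher with WT replicate 1 added. The log2 difference was positive at 11 of the 17, and the second comparison called 8 higher and 3 lower. Their summed level went the other way, from 4518 to 9552 CPM in WT to 1097 to 2572 in Mtm1 KO + TAM. The named members below are all among the higher ones. Myl4, the embryonic and atrial myosin light chain, was 8.79-fold higher, and Myh8, the perinatal myosin heavy chain, 10.1-fold higher. Tnnt2, the cardiac and embryonic troponin T, was 4.73-fold higher, and Myog, the myogenic factor myogenin, 2.71-fold higher. Myh8 was at 101, 137 and 99.5 in WT, at 234 to 428 in WT + TAM, at 612 to 805 in Mtm1 KO and at 1221, 2019, 772 and 589 in Mtm1 KO + TAM. Its tamoxifen part of 1.13 had an adjusted p of 0.0238, which misses the threshold.

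Genes of the neuromuscular junction and of denervated muscle were called higher at 7 of 20 and lower at 2 (45% called, against 7.7% of all genes). Runx1, a transcription factor induced by denervation, was at 109, 149 and 119 in WT and at 576, 917, 1000 and 925 in Mtm1 KO + TAM (6.69-fold higher, adjusted p = 7.37e-05). The acetylcholine receptor subunits Chrna1, Chrnd and the fetal subunit Chrng were 4.06-fold, 5.57-fold and 4.87-fold higher. Chrng was at 14.1, 23.6 and 15.7 in WT, at 71.7 to 96.4 in Mtm1 KO + TAM and at 158, 149 and 363 in untreated Mtm1 KO. The untreated knockout libraries lay above the treated ones, but the difference between these groups did not pass the test (log2 -1.36 ± 0.30, adjusted p = 0.191).

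Z-disc and mechanical stress genes were called higher at 10 of 26 and lower at 1. Besides Ankrd1, the named members were Hspb7, a small heat shock protein of muscle (7.78-fold), Cryab, the chaperone of desmin (2.89-fold), and Xirp1, an actin-binding protein of remodelling myofibrils (2.66-fold). With WT replicate 1 added, 1 of the 26 was called higher. Cytoskeleton and annexin genes showed the highest share of calls of any list, with 17 of 31 higher and 1 lower. Tubb6, a beta-tubulin of regenerating fibers, was at 615, 777 and 683 in WT and at 2458, 3536, 5436 and 3606 in Mtm1 KO + TAM (5.33-fold higher). Nestin (Nes), an intermediate filament of immature fibers and of the junction, was 2.77-fold higher. In the fits that left out 1 library 10 to 19 of these genes were higher, and with WT replicate 1 added 6 were. The 12 genes of the dystrophin complex held no call.

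Matrix remodelling genes were called higher at 8 of 29 (27.6%), and collagens at 2 of 17 (11.8%), against 3.56% of all genes. Timp1, an inhibitor of matrix metalloproteases, was at 93.6, 48.4 and 54.4 in WT and at 810, 664, 1292 and 1161 in Mtm1 KO + TAM. It was 14.6-fold higher and 9.58-fold higher in the second comparison, while the library labelled WT replicate 1 was at 672 and with it the call was lost (adjusted p = 0.117). Thbs4, a thrombospondin of muscle matrix, was 2.87-fold higher. Col8a1, a short-chain collagen, was 8.57-fold and 10.9-fold higher, and Col19a1 5.67-fold and 5.84-fold higher. The fibroblast marker list had no call among 9 genes, and its summed level was 4467 to 4627 CPM in WT and 4263 to 5206 in Mtm1 KO + TAM.

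Ctgf, a matricellular growth factor, differed from its neighbours in this list, since both parts were called. It was at 1270, 1447 and 1216 in WT, at 2250 to 3930 in WT + TAM, at 5438 to 6545 in Mtm1 KO and at 7473, 6465, 8682 and 9223 in Mtm1 KO + TAM. The genotype part was 1.85 ± 0.13 and the tamoxifen part 0.73 ± 0.13 (adjusted p = 0.00737), in the same direction. Of its 50-base stretches, 17.2% also occur in Gm15270.

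Glycolysis and glycogen genes were lower at 7 of 27 and higher at 0, with medians of -0.57 and -0.77. Pygm, muscle glycogen phosphorylase, was at 183730, 218230 and 169540 in WT and at 96667, 82377, 68088 and 89076 in Mtm1 KO + TAM (2.3-fold lower, adjusted p = 0.0015). Phka1 and Phkg1, the regulatory and catalytic subunits of phosphorylase kinase, were 2.59-fold and 2.38-fold lower. The second comparison called 13 of the 27 lower. With WT replicate 1 added, 2 were lower.

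Nuclear genes of the respiratory chain held no call among 46, and fat oxidation had 1 lower call among 20 (5%, against 7.7% of all genes). That was Ucp3, the muscle uncoupling protein, at 3212, 3667 and 3890 in WT and at 1437, 1900, 1515 and 1988 in Mtm1 KO + TAM. Untreated Mtm1 KO was at 4240, 1491 and 4225, so it covered both levels, and neither part of Ucp3 was called. Of 13 genes of the mitochondrial genome, 3 were called lower. The log2 difference was negative at 12 and positive at 1, against a positive one at 7451 of the 14942 genes tested. The median of the 13 was -0.67 in the first comparison and -0.10 in the second. mt-Co3, a cytochrome c oxidase subunit, was at 1691, 1315 and 2410 in WT and at 1028, 731, 697 and 1082 in Mtm1 KO + TAM (2.09-fold lower), with 705 to 1280 in WT + TAM and 1152 to 2306 in Mtm1 KO. Almost its whole length (99.9% of its 50-base stretches) also occurs in the nuclear pseudogene Gm28437, and all 3 mitochondrial calls were lost in 1 or more fits that left out a library.

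Of 78 ribosomal protein genes, 76 had a positive log2 difference, against 7451 of the 14942 genes tested. Their median was 0.38 (0.13 in the second comparison, and 0.0945 with WT replicate 1 added). The test called 3 higher, Rpl3, Rps27 and Rpl23 (3.8%, near the 3.56% of all genes). Of these 3, 19.3% to 35% of 50-base stretches occur in other genes or pseudogenes. Proteasome genes gave 31 positive of 32, a median of 0.42 and 1 call (3.1%), Psmd13 (1.63-fold higher). Psmd13 lost its call in 7 of 17 alternatives (adjusted p up to 0.47). DESeq2 called 33 ribosomal and 10 proteasome genes higher. Leaving out 1 library gave 0 (without WT replicate 3 or 4) to 17 (without Mtm1 KO + TAM replicate 16) ribosomal calls, and each of the 3 named calls was lost in at least 1 of these fits.

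Among genes of atrophy and FOXO signalling, 7 of 23 were higher and 4 lower. Cdkn1a, the cell cycle inhibitor p21, was at 809, 806 and 1008 in WT and at 6842, 14913, 10257 and 7263 in Mtm1 KO + TAM. It was 11-fold higher, and 6.97-fold higher in the second comparison. Myostatin (Mstn), the secreted brake on muscle growth, was at 802, 1574 and 787 in WT and at 242, 175, 236 and 242 in Mtm1 KO + TAM (4.78-fold lower). It was 8.25-fold lower in the second comparison. The library labelled WT replicate 1 was at 296, and with it added the call of Mstn was lost (adjusted p = 0.0139). Autophagy and lysosome genes had 3 calls higher, Map1lc3a, Ctsz and Hexa, and 1 lower, Ulk1, of 20. With WT replicate 1 added none of them was called, and over 17 alternatives Hexa lost its call in 5 and Ulk1 in 9.

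Smox and Amd1, enzymes of polyamine metabolism, were lower in both parts. The tamoxifen part is a mean over the genotypes. In WT + TAM against WT, Smox was 2.65-fold and Amd1 3.94-fold lower. In Mtm1 KO + TAM against Mtm1 KO, they were 1.22-fold and 1.16-fold lower, and that comparison called 0 genes. Smox, spermine oxidase, was at 7317, 8720 and 8072 in WT, at 3523, 3793, 2447 and 2440 in WT + TAM, at 1662, 1608 and 2189 in Mtm1 KO and at 1631, 1457, 1250 and 1693 in Mtm1 KO + TAM. All libraries of the other groups lay below all WT libraries. The sum was a 5.43-fold decrease, with a genotype part of -1.60 ± 0.12 and a tamoxifen part of -0.84 ± 0.12 (adjusted p = 0.00211). Amd1, which makes the aminopropyl donor for spermidine and spermine, was 7.78-fold lower, with parts of -1.87 ± 0.16 and -1.09 ± 0.15 (adjusted p of the tamoxifen part 0.00156). Its near-identical copy Amd2 was 10.1-fold lower, but 85.7% of the 50-base stretches of Amd2 occur in Amd1, so their counts cannot be split with certainty. Of 11 polyamine genes tested, 3 were lower, Amd1 and Amd2 among them, and 2 higher, one of them Sat1, the acetylase that degrades polyamines (1.79-fold). The call of Sat1 was lost without WT replicate 3 or 4 (adjusted p up to 0.0192) and with WT replicate 1 added (0.014). With that library added, 3 of the list were lower and 0 higher.

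Immediate early genes were higher at 7 of 19 with 0 lower. Egr1 was 2.37-fold higher in the first comparison and 7.72-fold higher in the second, Ier3 4.34-fold and 1.56-fold, and Maff 3.22-fold and 1.33-fold, and of these the second comparison called Egr1. Atf3, a factor of the stress response, was the only call among 18 genes of its list (5.6%, against 7.7% of all genes). It was at 327, 276 and 444 in WT and at 1426, 1386, 1682 and 1787 in Mtm1 KO + TAM (4.39-fold higher), but the second comparison gave 1.5-fold (adjusted p = 0.415). Antioxidant genes were higher at 5 of 18. Mt2, a metallothionein, was 28.3-fold higher. It was at 227, 323 and 186 in WT and at 4147, 3307 and 3323 in 3 treated knockout libraries, with the remaining one at 17606, and 45.8% of its 50-base stretches occur in Gm45774. Srxn1, sulfiredoxin, was 2.87-fold higher, and Gpx1, glutathione peroxidase, 1.66-fold higher. The call of Gpx1 was lost without WT replicate 2 or 4 (adjusted p up to 0.0169) and with WT replicate 1 added (0.134). With that library added, 2 antioxidant genes were called higher.

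Several receptors were lower. Ghr, the growth hormone receptor, was at 4201, 4196 and 3337 in WT and at 1850, 1974, 1779 and 2419 in Mtm1 KO + TAM (1.99-fold lower). Lifr, a receptor of interleukin-6 family cytokines, was 1.99-fold lower. Of 19 genes of that list 4 were lower and 1 higher, with a median of 0.10. With WT replicate 1 added, 2 were lower and 0 higher, and the calls of Ghr (adjusted p = 0.0869) and Lifr (0.106) were lost. Among nuclear receptors 3 of 14 were lower and 0 higher: Rxrg (2.81-fold) and Rxra (1.67-fold), partners of many nuclear receptors, and Esr1. Rxra lost its call in 4 of 17 alternatives, one of them with WT replicate 1 added (adjusted p = 0.0186). Esr1 was at 692, 659 and 892 in WT and at 407, 338, 356 and 516 in Mtm1 KO + TAM (1.89-fold lower, adjusted p = 0.00494). The second comparison gave a 1.67-fold decrease (adjusted p = 0.0288), the tamoxifen part of Esr1 was -0.09 ± 0.14, and its call was lost in 9 of 17 alternatives. For the protein of Esr1, the study reports the other direction, a rise in Mtm1 KO that was smaller with tamoxifen. Cholesterol synthesis had no call among 23 genes and NAD metabolism 1 among 11 (9.1%, against 7.7% of all genes). That was the hydrolase Cd38 (1.66-fold lower), which lost its call in 11 of 17 alternatives.

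The comparisons that share no library called 12 genes in opposite directions, 8 higher in Mtm1 KO + TAM than in WT (Pgr, Flrt1, Aqp5, Oxtr, Mmd2, Tgm3, Gpx3 and Tbc1d1) and 4 lower (Prkag3, Exoc3l4, Pla2g16 and Ace). Tgm3, Tbc1d1, Prkag3, Exoc3l4, Pla2g16 and Ace are named for this pattern after their values were seen. The first 5 genes and Gpx3 kept their call against WT in each fit that left out 1 of the 7 libraries. Each of the other 6 lost it in at least 1, with the highest adjusted p between 0.0145 for Prkag3 and 0.0457 for Tbc1d1.

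Pgr, the progesterone receptor and a classical estrogen target, had 0 counts in all WT libraries. It was at 21.1, 24, 24.5 and 24.8 in Mtm1 KO + TAM, at 48.6, 45.7, 48.7 and 44.8 in WT + TAM and at 0, 0 and 1.76 in untreated Mtm1 KO. All treated libraries lay above all untreated ones. Pgr was at least 26.3-fold higher in Mtm1 KO + TAM than in WT, against a floor of 3 counts over the WT group, and the adjusted p was 0.0012. Relative to untreated Mtm1 KO, which had 2 counts, the ratio was 37.9 (95% counting interval 10.2 to 317). In WT + TAM it was at least 43.4-fold higher than in WT. The gene is at chr9:8899833-8968611 (plus strand).

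Flrt1, a cell adhesion and FGF receptor-binding protein, was at 37.2, 18.9 and 26.2 in WT and at 1176, 411, 278 and 1264 in Mtm1 KO + TAM. It was at 2563 to 3098 in WT + TAM and at 17.5, 45.8 and 36.9 in untreated Mtm1 KO. The treated knockout libraries lay between the untreated ones and WT + TAM. The difference from WT was 27.6-fold (log2 4.78 ± 0.60, adjusted p = 0.000764). The test of a different response in the genotypes gave an adjusted p of 0.934.

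Aqp5, a water channel of glands, was at 0, 1.18 and 5.23 in WT and at 147, 47.2, 48.9 and 114 in Mtm1 KO + TAM (38.6-fold higher). Oxtr, the oxytocin receptor, was at 6.04, 1.18 and 6.28 in WT and at 107, 63.0, 56.0 and 245 in Mtm1 KO + TAM (24.3-fold higher). Mmd2, a membrane protein of the progestin and adipoQ receptor family, was at 0, 1.18 and 9.42 in WT and at 95.5, 96.1, 126 and 196 in Mtm1 KO + TAM (34-fold higher). In untreated Mtm1 KO, Aqp5 was at 4.61, 0 and 0, Oxtr at 26.7, 7.18 and 8.79 and Mmd2 at 15.7, 6.28 and 0.879, below all treated libraries of the same gene. Together with Pgr, Aqp5 and Oxtr are 3 of the 4 higher calls in the estrogen response list, which had 18 tested genes and 1 lower call, Ret, a receptor tyrosine kinase (2.9-fold).

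Gpx3, the secreted glutathione peroxidase, was the most abundant of the higher genes. It was at 3787, 2439 and 3086 in WT, at 9276, 7078, 9431 and 7472 in Mtm1 KO + TAM, at 12517 to 17490 in WT + TAM and at 4834, 3579 and 4184 in untreated Mtm1 KO. The rise over WT was 2.62-fold, and the tamoxifen part was 1.59 ± 0.13 (adjusted p = 1.18e-05). The call was lost with WT replicate 1 added (adjusted p = 0.0104), a library at 4687. The test of a different response in the genotypes gave an adjusted p of 0.27.

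Tgm3, an epidermal transglutaminase, was at 3.02, 0 and 4.19 in WT and at 52.3, 53.0, 15 and 50.6 in Mtm1 KO + TAM. Its ratio to untreated Mtm1 KO, which had 2 counts, was 67.1 (95% counting interval 18.3 to 558). Tbc1d1, a Rab GTPase-activating protein of glucose uptake, was at 804, 803 and 651 in WT and at 1035, 1062, 1204 and 1169 in Mtm1 KO + TAM (1.46-fold higher). Prkag3, the muscle-specific gamma subunit of AMP-activated kinase, was at 5963, 9809 and 5757 in WT, at 1797, 3478, 1380 and 2583 in Mtm1 KO + TAM, at 2162 to 2491 in WT + TAM and at 3427, 3981 and 3936 in Mtm1 KO. It was 3.15-fold lower than in WT. Exoc3l4, an exocyst-like protein, Pla2g16, a phospholipase, and Ace, angiotensin-converting enzyme, were 2.26-fold, 1.66-fold and 1.46-fold lower.

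**Figure D3:**
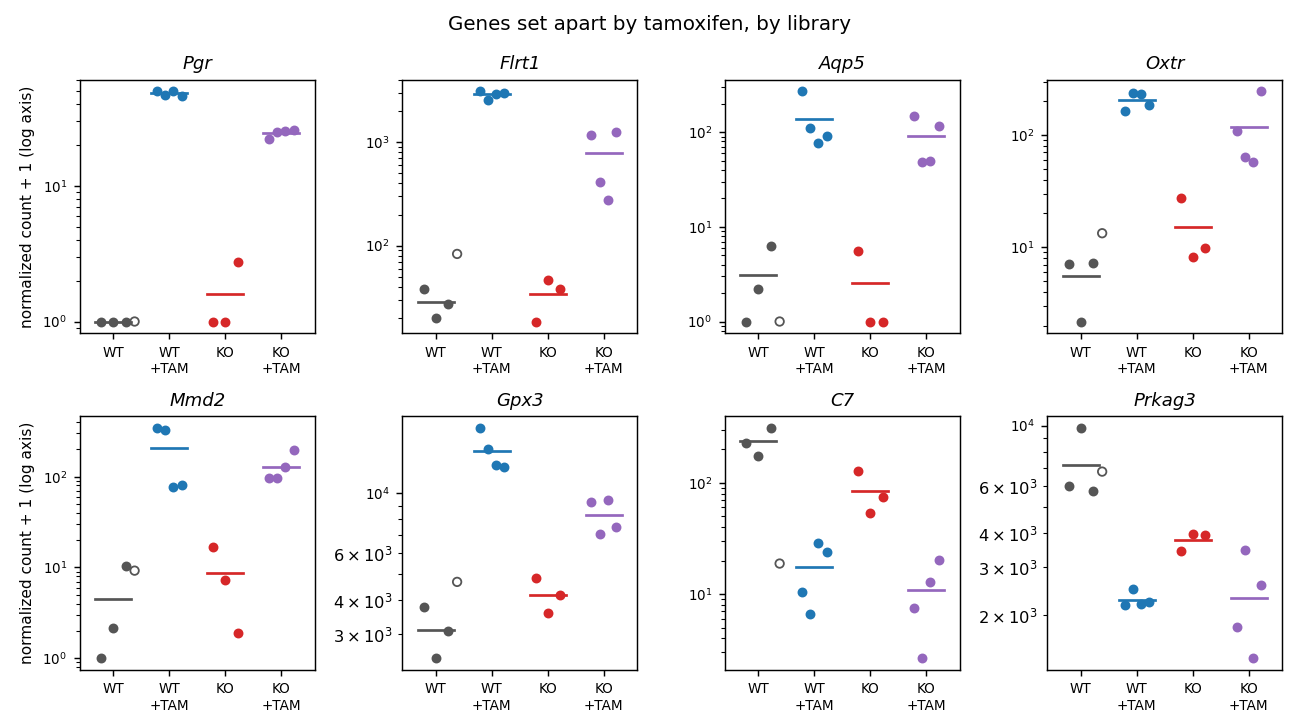
Normalized count plus 1 on a log axis for 8 genes in each library of WT (n = 3), WT + TAM (n = 4), Mtm1 KO (n = 3) and Mtm1 KO + TAM (n = 4). Filled points are libraries, lines are group means and the open circle is the library labelled WT replicate 1. Pgr, Flrt1, Aqp5, Oxtr, Mmd2 and Gpx3 are higher in both treated groups than in both untreated ones, C7 is lower in both treated groups, and Prkag3 has a lower mean in both treated groups, with 1 Mtm1 KO + TAM library above 1 Mtm1 KO library.

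Among called genes with a group mean of at least 50 normalized counts, the lowest p for the tamoxifen part was at Flrt1, Gpx3, Oxtr, Aqp5, C7, Cxcl14, Dio3 and Fam57b. C7, a component of the terminal complement complex, was at 224, 173 and 310 in WT, at 6.43, 1.66, 11.8 and 19.3 in Mtm1 KO + TAM, at 5.57 to 27.8 in WT + TAM and at 127, 52.1 and 73.0 in Mtm1 KO. The treated libraries were all below the untreated ones of the study's set, with a 24.6-fold decrease from WT (adjusted p = 0.000322). The library labelled WT replicate 1 was at 17.8, among the treated libraries, and with it added the call of C7 was lost (adjusted p = 0.0117). Cxcl14, a chemokine, was 2.41-fold lower, with a tamoxifen part of -0.87 ± 0.09.

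Dio3, the deiodinase that inactivates thyroid hormone, was at 3.02, 3.54 and 4.19 in WT and at 101, 64.6, 103 and 45.1 in Mtm1 KO + TAM (20.9-fold higher). WT + TAM was at 13 to 21.8 and untreated Mtm1 KO at 4.61, 7.18 and 8.79, and both parts were called, 1.53 ± 0.31 for genotype and 2.85 ± 0.31 for tamoxifen. Gria1, a glutamate receptor subunit, had 2 counts over the WT group and was at 93.7, 109, 49.7 and 42.3 in Mtm1 KO + TAM. Its ratio was 123 (95% counting interval 33.7 to 1020). It was at 1.15 to 8.29 in WT + TAM and at 1.85, 8.08 and 0 in Mtm1 KO, so the treated knockout libraries lay above all others, though the interaction was not called.

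Further genes had a lower level with both changes. Igfbp5, an insulin-like growth factor binding protein, was 2.98-fold lower, with a genotype part of -0.67 ± 0.14 and a tamoxifen part of -0.90 ± 0.14. Ighm, the heavy chain of IgM, was at 3279, 1912 and 3248 in WT, at 661 to 1088 in WT + TAM, at 441, 766 and 224 in Mtm1 KO and at 171, 149, 143 and 281 in Mtm1 KO + TAM (15.5-fold lower). The lymphocyte marker list summed to 59.3 to 116 CPM in WT and to 6.94 to 11.9 in Mtm1 KO + TAM, and 3 of its 10 genes were tested. Ighm is itself in that sum, and the other tested members, Cd79b and Cd4, had positive log2 differences that did not pass the test. The part of these cells in the lower value of Ighm was not tested. 1700001O22Rik was 84.1-fold lower and Kcns1, a potassium channel subunit, 50.8-fold lower, with treated and knockout groups alike below WT.

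At Fam57b and Mylk2 the parts had opposite signs, so that treated knockout muscle lay nearer to WT than the genotype part alone would place it. Fam57b, a ceramide synthase-like protein, was at 948, 758 and 883 in WT, at 351, 315 and 368 in Mtm1 KO, at 615, 471, 506 and 547 in Mtm1 KO + TAM and at 1510 to 1686 in WT + TAM. The genotype part was -1.48 ± 0.08 and the tamoxifen part 0.76 ± 0.08 (adjusted p = 0.00025), leaving a 1.65-fold decrease from WT (adjusted p = 0.00473), whose call was lost in 8 of 17 alternatives (adjusted p up to 0.0218). Mylk2, the myosin light chain kinase of skeletal muscle, had a genotype part of -1.15 ± 0.11 and a tamoxifen part of 0.51 ± 0.11, which missed the threshold (adjusted p = 0.026). Against untreated Mtm1 KO, neither rise passed the test (adjusted p = 0.192 and 0.756).

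**Figure D4:**
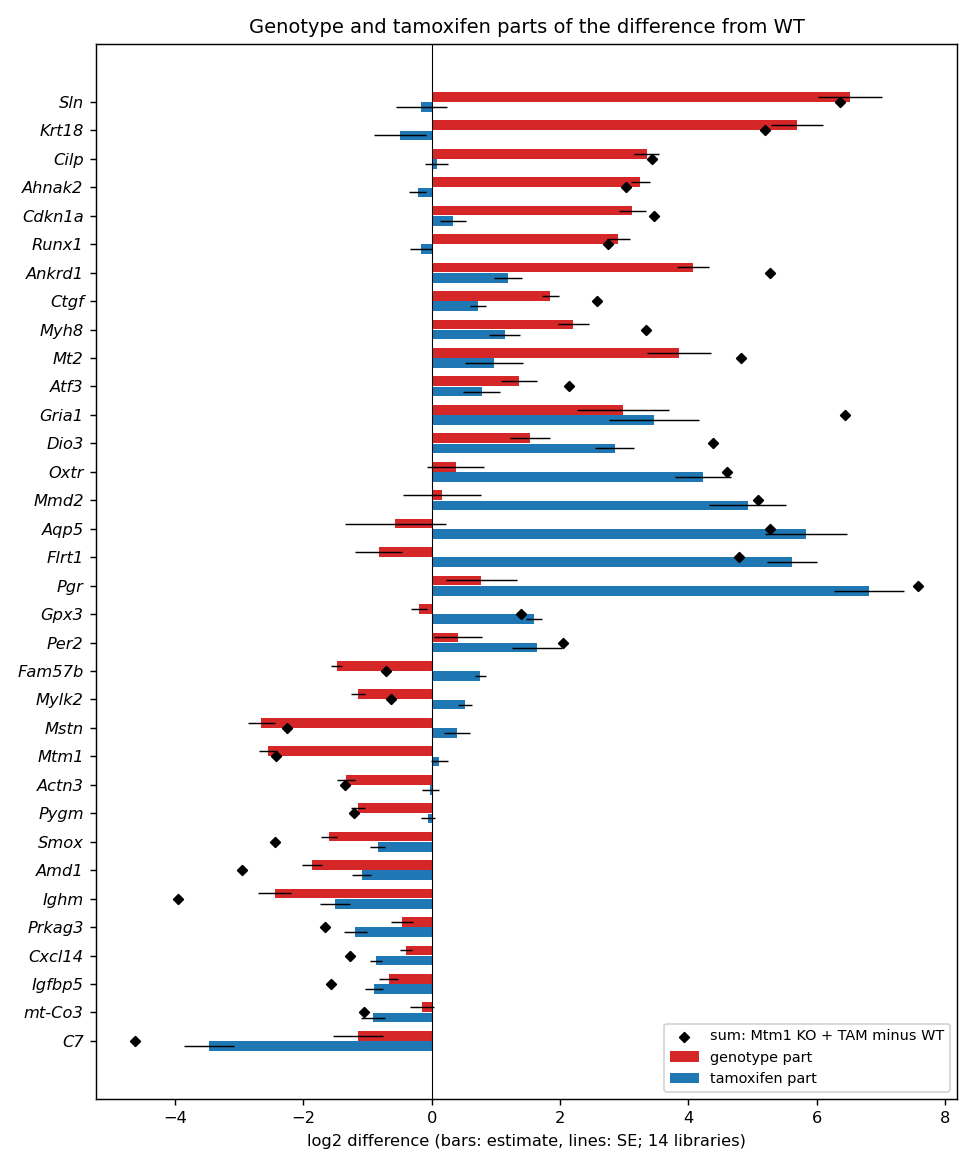
Genotype part (red) and tamoxifen part (blue) of the log2 difference of Mtm1 KO + TAM minus WT for named genes, with lines for the SE and black diamonds for their sum, from 1 fit of 14 libraries. Sln, Krt18 and Cilp rest on the genotype part, Flrt1, Aqp5 and Pgr on the tamoxifen part, Smox and Amd1 on both in the same direction, and Fam57b on both in opposite directions. The tamoxifen part is a mean over the genotypes, and for Smox and Amd1 the fitted difference with tamoxifen was larger in WT. The values of Pgr and Gria1, with few or no counts in WT, depend on the prior count of the fit.

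The circadian clock list had 1 higher call, Per2, and 1 lower, Bhlhe41, of 17 (11.8% called, against 7.7% of all genes). Its median log2 difference was 0.05 in the first comparison and -0.63 in the second. Per2 was at 140, 142 and 41.9 in WT and at 456, 537, 458 and 361 in Mtm1 KO + TAM (4.15-fold higher), while WT + TAM held 2 libraries at 751 and 974.5 and 2 at 188 and 140. The labels give no time of day, and its part in this spread was not tested.

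The macrophage list summed to 254 to 327 CPM in WT and to 439 to 760 in Mtm1 KO + TAM. The test called 1 of its 14 genes (7.1%, against 7.7% of all genes), Fcer1g (2.37-fold higher). All 14 had a positive log2 difference, against 7451 of the 14942 genes tested. Their median was 0.69, and 0.444 without Mtm1 KO + TAM replicate 15. DESeq2 called 6 of them, and Fcer1g lost its call in 6 of 17 alternatives. The endothelial list summed to 348 to 550 in WT and 323 to 426 in Mtm1 KO + TAM, and 1 of 9 was called, Cdh5 (2.01-fold lower). All 9 had a negative log2 difference (median -0.69, against 0.24 in the second comparison), DESeq2 called 5 of them lower, and Cdh5 lost its call in 8 of 17 alternatives. The skin list had 1 higher call of 3 tested, Sfn (6.42-fold higher). The lists for fat cells, red blood cells and dividing cells had no call. Fat cell markers spread more within WT, from 244 to 1890 CPM, than between the groups. Without WT replicate 2, 4 of the 10 were called higher, with a median log2 difference of 2.38 in place of 0.35.

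**Figure D5:**
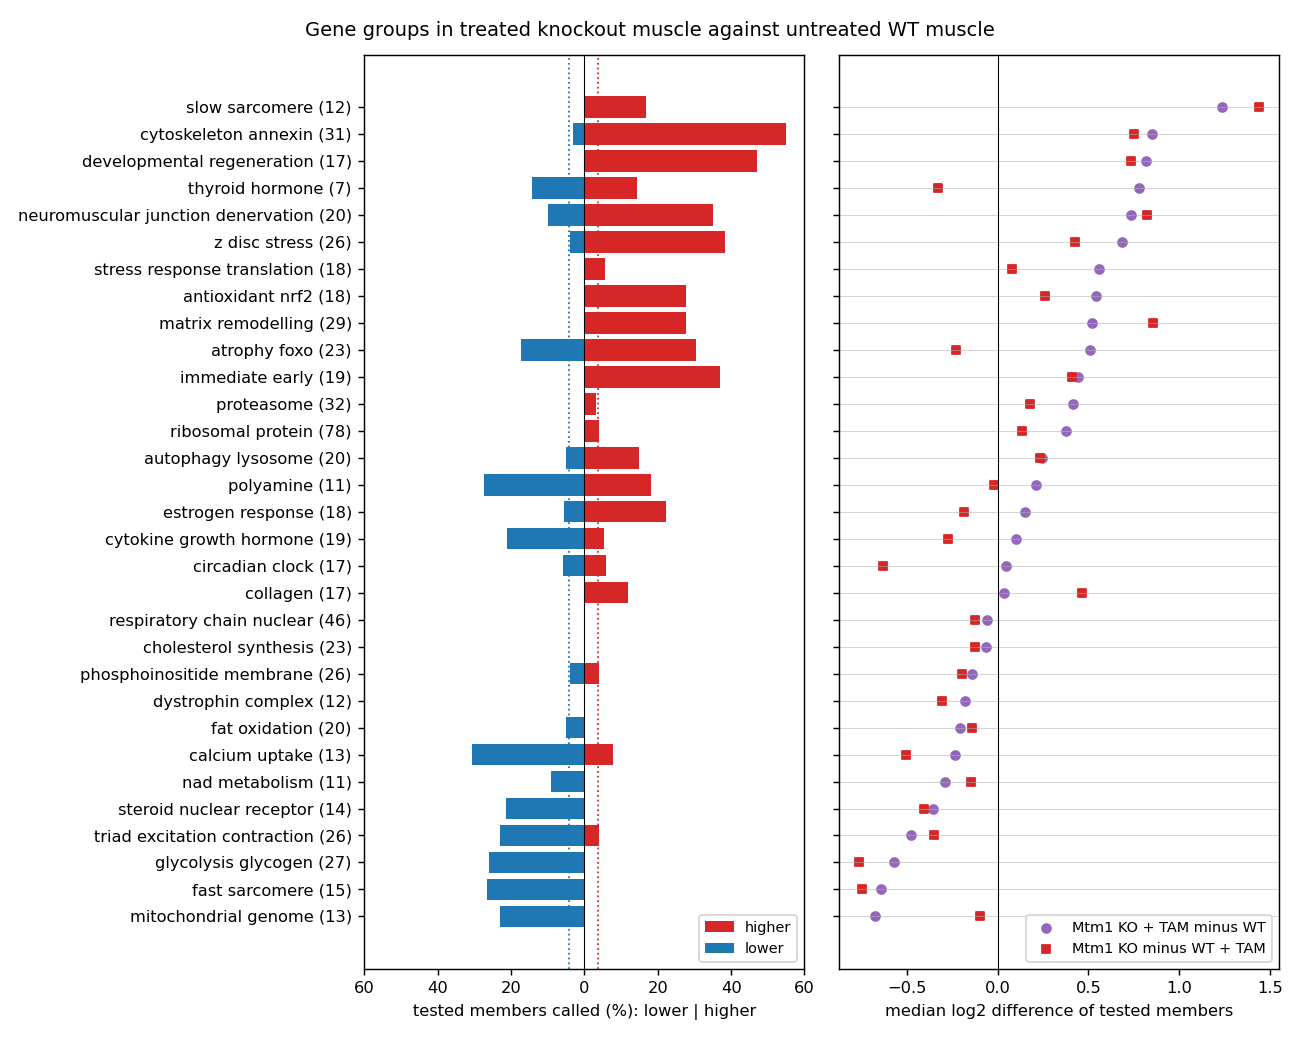
Left, the percentage of tested members of each gene list called higher (red) or lower (blue) in Mtm1 KO + TAM than in WT, with dotted lines at the share of all genes (3.56% higher and 4.14% lower) and the number tested in parentheses. Right, the median log2 difference of the tested members in that comparison (circles) and in Mtm1 KO minus WT + TAM (squares). Cytoskeleton and annexin genes have the highest share, and fast sarcomere and glycolysis genes lie below 0 in both comparisons.

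Promoter sequence was read from RefSeq (GRCm38.p6, a window around the transcript start) for 85 of the 118 named genes. It shows the stretch around the RefSeq start of genes that moved with the drug or the genotype. The GENCODE genes of Ankrd1 (to chr19:36120099, minus strand) and Aqp5 (from chr15:99590782, plus strand) start further upstream. The window shown for Ankrd1 therefore lies within that gene, and that for Aqp5 lies almost wholly within its gene. Capitals mark matches on either strand of the estrogen receptor half-site AGGTCA, of the AP-1 motif TGANTCA and of the TEAD motif GGAATG. The full palindromic estrogen response element is in 23 of 32851 such promoters (0.07%), AGGTCA in 16.3%, TGANTCA in 7.81% and GGAATG in 14.7%. Of the 12 genes with opposite signs, 10 had a promoter (13 promoters). Of these genes 0 held the full element, 3 the half-site and 0 the AP-1 motif. Of the 6 with a promoter among the 8 of lowest p for tamoxifen, 3 held the half-site. A gene counts here if any of its promoters holds the motif, while the percentages above are of single promoters. A match is only a match of letters.
Pgr, chr9:8899583-8899882, plus strand: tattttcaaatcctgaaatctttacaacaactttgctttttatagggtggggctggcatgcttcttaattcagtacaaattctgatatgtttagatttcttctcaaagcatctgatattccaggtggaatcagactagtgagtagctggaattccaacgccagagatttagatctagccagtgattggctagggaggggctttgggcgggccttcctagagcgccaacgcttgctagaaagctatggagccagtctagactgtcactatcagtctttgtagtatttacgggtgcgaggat
Oxtr, chr6:112489776-112490075, minus strand: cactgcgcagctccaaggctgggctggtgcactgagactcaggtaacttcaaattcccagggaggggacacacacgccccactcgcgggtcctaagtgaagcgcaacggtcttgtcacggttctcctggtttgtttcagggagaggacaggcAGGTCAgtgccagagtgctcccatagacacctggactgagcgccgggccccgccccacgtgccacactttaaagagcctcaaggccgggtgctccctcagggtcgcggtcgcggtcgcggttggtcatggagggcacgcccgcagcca
Aqp5, chr15:99590778-99591077, plus strand: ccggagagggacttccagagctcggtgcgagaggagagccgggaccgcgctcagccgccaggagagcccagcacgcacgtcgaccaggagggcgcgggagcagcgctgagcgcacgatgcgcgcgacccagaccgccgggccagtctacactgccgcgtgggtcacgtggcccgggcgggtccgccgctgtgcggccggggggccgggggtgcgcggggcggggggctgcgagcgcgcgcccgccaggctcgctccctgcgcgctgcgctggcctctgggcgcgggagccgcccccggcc
C7, chr15:5063724-5064023, minus strand: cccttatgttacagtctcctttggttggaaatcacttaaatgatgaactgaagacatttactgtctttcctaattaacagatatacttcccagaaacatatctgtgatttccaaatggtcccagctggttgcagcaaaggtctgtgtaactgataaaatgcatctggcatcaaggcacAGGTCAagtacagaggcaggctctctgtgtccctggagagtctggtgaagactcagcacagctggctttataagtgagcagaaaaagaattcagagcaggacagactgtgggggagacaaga
Ankrd1, chr19:36119795-36120094, minus strand: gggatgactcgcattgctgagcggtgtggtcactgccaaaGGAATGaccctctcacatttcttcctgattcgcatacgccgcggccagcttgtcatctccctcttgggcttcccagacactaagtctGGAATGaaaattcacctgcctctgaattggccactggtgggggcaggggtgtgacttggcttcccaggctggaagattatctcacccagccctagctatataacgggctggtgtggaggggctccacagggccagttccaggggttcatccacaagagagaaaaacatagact
Sprr1a, chr3:92485832-92486131, minus strand: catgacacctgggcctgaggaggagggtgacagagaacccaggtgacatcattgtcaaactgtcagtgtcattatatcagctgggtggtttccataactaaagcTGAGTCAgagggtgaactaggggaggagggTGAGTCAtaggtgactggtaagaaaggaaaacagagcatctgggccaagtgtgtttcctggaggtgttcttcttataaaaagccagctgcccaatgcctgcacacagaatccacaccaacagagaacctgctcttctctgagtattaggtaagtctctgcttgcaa
Of the drug-responsive genes shown, Oxtr and C7 hold 1 half-site each, while Pgr and Aqp5 hold none of the motifs marked. Ankrd1 holds 2 TEAD motifs and Sprr1a 2 AP-1 motifs, and of the 7 promoters found for the 10 genes with the largest increase, 3 held the AP-1 motif.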

How the data were processed

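RNA was extracted from flash-frozen quadriceps, and libraries were made from 1 µg of RNA with TruSeq kits, per the labels. The authors aligned reads to GRCm38 with STAR in a two-step procedure and counted them per gene with HTSeq, and the deposited table holds raw counts for 41388 genes in 16 libraries. The submitters' processing notes name bcl2fastq 2.17, STAR 2.5.0c and Cufflinks 2.2.1. For the annotation, strand setting and counting mode, no source used here gives a value. The authors also deposited RPKM values, which divide counts by gene length and library size, and these were used only as an alternative.

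Counts were fitted with edgeR 4.0.16 (R 4.3.3) by the quasi-likelihood test, with TMM scaling, filterByExpr (minimum count 10, minimum total 15) and Benjamini-Hochberg adjustment over all tested genes. A gene was called at an adjusted p of at most 0.01, and every adjusted p comes from this test unless another is named. Fold changes are from the fit, and SE is the standard error of the log2 difference. The Mtm1 KO + TAM and WT libraries were fitted alone, as were Mtm1 KO and WT + TAM. The genotype and tamoxifen parts came from 1 fit of 14 libraries. The libraries WT replicate 1 and KO replicate 12, which the study left out, entered as alternatives only.

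In simulated counts, the test recovered 76% of 200 genes given a log2 change of 2 in the first comparison, with 4 false calls. Other alternatives were DESeq2 1.42.0, limma 3.58.1 on log2(RPKM + 1) and log2(RPKM + 0.1), edgeR's exact test, other scalings and filters, and each library left out in turn. Intervals and floors cover counting error only. A floor is 3 counts over a group, and intervals are at 95%.

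The members, gene lists and tests were chosen with earlier results of these data known. Named genes were those the study names, the 10 largest increases and decreases among called genes with a group mean of at least 50 normalized counts, at most 4 called members of each list, the 8 with the lowest p for each part, and the 12 of opposite sign, added after their values were seen. A few of these genes are not reported here. Gene positions came from GENCODE M21 (40254 of 41388 IDs matched).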

Additional observations from a re-analysis of the deposited data

Results flagged for a closer look

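Of 217 gene and group combinations of 4 libraries among the named genes with a mean of at least 10, 17 held a library whose gap to the nearest other library exceeded Dixon's 95% critical value, relative to the range of the group, and chance alone flags about 1 in 20. The values are normalized counts. For Pik3c2b, Mtm1 KO + TAM replicate 13 was lowest at 512.5, and the other libraries of the group were at 766.7 to 815.7. Ripply1 was highest in Mtm1 KO + TAM replicate 14, at 260.9 against 30.35 to 53.27. In WT + TAM replicate 6, Cdh4 stood highest at 490, with the rest of the group between 162.3 and 203.3. For Myh4, Mtm1 KO + TAM replicate 16 was highest at 512200, and the other libraries of the group were at 390600 to 406500. Myh4 was highest in WT + TAM replicate 6, at 1173000 against 928400 to 956800. In WT + TAM replicate 5, Mylk2 stood highest at 34600, with the rest of the group between 32470 and 32790. For Ctgf, WT + TAM replicate 5 was highest at 3930, and the other libraries of the group were at 2250 to 2455. Phka1 was highest in Mtm1 KO + TAM replicate 16, at 9420 against 7846 to 8024. For Mstn, Mtm1 KO + TAM replicate 14 was lowest at 174.8, and the other libraries of the group were at 235.8 to 241.9. Mstn was highest in WT + TAM replicate 6, at 2097 against 1023 to 1035. In Mtm1 KO + TAM replicate 16, Rxra stood highest at 2736, with the rest of the group between 2143 and 2238. For Mt2, Mtm1 KO + TAM replicate 15 was highest at 17610, and the other libraries of the group were at 3307 to 4147. Gpx1 was highest in Mtm1 KO + TAM replicate 13, at 4824 against 3904 to 4017. In WT + TAM replicate 5, Gpx1 stood highest at 3743, with the rest of the group between 2622 and 2761. For Fcer1g, WT + TAM replicate 6 was lowest at 54.57, and the other libraries of the group were at 186 to 199.3. Tgm3 was lowest in Mtm1 KO + TAM replicate 15, at 14.99 against 50.58 to 53.02. In WT + TAM replicate 6, Tgm3 stood highest at 245, with the rest of the group between 39.41 and 69.89. The causes of these single-library values were not tested.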

How the results depend on the processing

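All 116 named genes called in Mtm1 KO + TAM against WT kept their sign under the alternatives run, and 56 kept their call in all of them. Of the rest, 51 lost it with WT replicate 1 added and 35 in at least 1 fit that left out a library. The 1150 genes called became 2375 with DESeq2 (1171 higher, 1204 lower), 2079 with edgeR's exact test (961 and 1118), 1871 by library size alone (1573 and 298), 1792 with no filter (857 and 935), 2993 at a threshold of 0.05 (1412 and 1581) and 297 with WT replicate 1 added (162 and 135). With limma the higher and lower counts were 1104 and 232 on log2(RPKM + 1), and 1260 and 234 on log2(RPKM + 0.1). Leaving out 1 library gave 531 to 1246 genes, 244 to 592 higher and 287 to 654 lower.

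Mtm1 KO against WT + TAM gave 2042 genes with DESeq2, 1973 by library size alone, 2508 at 0.05 and 372 to 736 with 1 library left out. The genotype part gave 5100 by library size alone, 5180 at 0.05 and 2300 to 3131 with 1 library left out. The tamoxifen part gave 343 with DESeq2, 286 at 0.05 and 51 to 82 with 1 library left out. The causes of these changes were not tested. The study describes the RNA sequencing samples as coming from littermates. No paired analysis was possible because the labels number the libraries without a number shared between groups. The tests therefore treat all libraries as independent and do not account for litter. Genes near 0 counts in WT have folds limited by depth, and WT rests on 3 libraries.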
